A study of Mus musculus with 6 samples.

Results

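The unfolded protein and integrated stress response was followed through 42 listed genes in cultured mouse cortical neurons in which Cugbp1 was knocked down. Cugbp1, listed under its current symbol Celf1, is an RNA-binding protein that acts on splicing, mRNA stability and translation. The 42 genes were taken from a list of names set by their known roles, drawn up with earlier results of these data known, and a probe set was counted for a gene when the probe annotation named that gene alone. Of the 42 genes, 40 were found under their own symbols, and 2 only under older ones, Manf as Armet and Ppp1r15a as Myd116. They held 767 of the 1195555 probe sets on the exon array, and 715 of the 767 passed a filter on low values, so that all 42 were among the 16532 genes tested.

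The neurons came from C57Bl/6 embryos at embryonic day 15 and were dissociated after the meninges had been removed. AraC, which acts against dividing cells, was added on day 2, and on day 5 the cultures were exposed to a lentivirus for 4 hours. Its shRNA was directed against Cugbp1 in 3 samples and was a control shRNA in the other 3. RNA was taken on day 11, after 6 further days of culture, and each sample was hybridised to its own array. All groups therefore carried virus and an shRNA, the samples were bulk cultures that can hold other cells, and no uninfected culture was analysed here. The sequence of the shRNA and the number of shRNAs used against Cugbp1 were not given in the sources used here. Replicates 2 and 3 are numbered in the sample names and replicate 1 was numbered by exclusion. The treatment text of the 4 arrays of replicates 2 and 3 names an shRNA against Tdp-43 in place of Cugbp1, and the series text names motor neurons where the sample names and descriptions give cortical neurons. No label says whether the 3 samples of a group came from separate embryos or cultures, so p-values measure the spread between these samples, which may be technical. The number of arrays, 3 in each group, limits the precision.

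The labels were first set against the targeted gene. Celf1 measured 10.85, 10.79 and 10.75 on the log2 scale in control replicates 1 to 3 and 9.59, 9.40 and 9.33 in Cugbp1 shRNA replicates 1 to 3. It fell by 1.36 (SE 0.10, adjusted p = 0.0124, limma), which leaves 39.1% of the control level (95% confidence interval 33.3 to 45.9%). Tardbp, the gene of Tdp-43, differed by -0.03 (SE 0.16, adjusted p = 0.961, limma). Array medians over all probe sets lay between 5.74 and 5.78, and every pair of arrays correlated at 0.971 or above over gene values. Mean log2 levels of 11 pan-neuronal markers lay between 11.84 and 11.98 on control arrays and between 11.75 and 11.81 on Cugbp1 shRNA arrays. Of these 11, 9 had a lower mean in the knockdown. Markers of glia were also measured, with means over 10 astrocyte markers of 9.92 on each control array and 9.74 to 9.97 on Cugbp1 shRNA arrays, and 7 of the 10 had a lower mean in the knockdown. Means of 9 markers of the oligodendrocyte lineage lay between 9.20 and 9.61 over the 6 arrays, those of 9 fibroblast and meningeal markers between 8.51 and 8.71, of 10 microglial markers between 6.93 and 7.23 and of 9 endothelial and mural markers between 6.65 and 7.10. All 10 microglial markers had a lower mean in the knockdown, with a median difference of -0.11. The mean was lower for 3 of the 9 oligodendrocyte, 6 of the 9 fibroblast and 5 of the 9 endothelial and mural markers. No tested marker was called higher, and Pdgfrb, a receptor of mural cells (-0.80, adjusted p = 0.0414, limma), and Thbs1, a matrix glycoprotein of fibroblasts (-0.72, adjusted p = 0.0443, limma), were called lower. Each was 1 of the 9 tested markers of its list, where 2.85% of all genes were called lower. Counts this small are not read as a result about these cells. All 9 tested markers of proliferating cells had a higher mean with the Cugbp1 shRNA, with a median difference of 0.27. In limma 0 were called, and 7 of the 9 were called higher with replicate number as a block, a fit that called 9.34% of all genes higher. Their part in the results that follow was not tested, and in such bulk samples fewer cells of a type and less RNA per cell cannot be told apart.

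The endoplasmic reticulum (ER) answers a load of unfolded proteins through the sensors IRE1, PERK and ATF6. ATF6 and XBP1, the factor that IRE1 activates by splicing its mRNA, induce chaperones and parts of the degradation machinery of the ER. PERK, together with kinases that sense other stresses, phosphorylates eIF2α, which lowers translation in general and raises that of ATF4, a factor that induces genes of amino acid supply, and of CHOP, the product of Ddit3. Neurons rely on this balance to fold the receptors and channels they export.

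In the comparison of Cugbp1 shRNA with control shRNA, Manf alone of the 42 genes passed the test, and it rose 1.43-fold. The chaperone genes had higher means as a group, 8 of 10, as did 6 of the 7 sensors and transcription factors. The genes of ATF4-driven amino acid supply moved in different directions from one replicate pair to another. Of the 42 genes, 28 had a higher and 14 a lower mean with the Cugbp1 shRNA, and their median difference was 0.07, beside -0.01 over all genes tested, of which 46.5% had a higher mean. At an adjusted p under 0.05 in limma, fitted over all genes with Benjamini-Hochberg adjustment, 1 of the 42 was called higher and 0 lower. The background shares were 1.09% of all genes called higher and 2.85% called lower, so 1 of 42 is not far from the background. At an unadjusted p under 0.05 there were 4 higher and 3 lower genes, 16.7% of the 42, against 18.8% of all genes in either direction.

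The 3 Cugbp1 shRNA arrays did not overlap the 3 control arrays for 8 genes that were higher, 19% of the 42, against 10.8% of all genes. They were Atf5, Atf6, Eif2ak1, Dnajb9, Dnajc3, Sdf2l1, Calr and Manf. Groups were apart for 5 genes that were lower, 11.9% of the 42, against 14.4% of all genes, namely Ppp1r15a, Ppp1r15b, Ddit4, Canx and Syvn1. Samples of the same replicate number deviated from their group means together (correlations over genes of 0.76, 0.50 and 0.71), and when replicate number entered the model as a block, limma called 6 of the 42 genes higher and 3 lower. That fit called 9.34% of all genes higher and 13.9% lower, against 14.3% and 7.14% of the 42. The blocked calls were Manf, Sdf2l1, Atf5, Slc7a11, Atf6 and Eif2ak1 higher and Ppp1r15a, Ppp1r15b and Ddit4 lower.

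**Figure D1:**
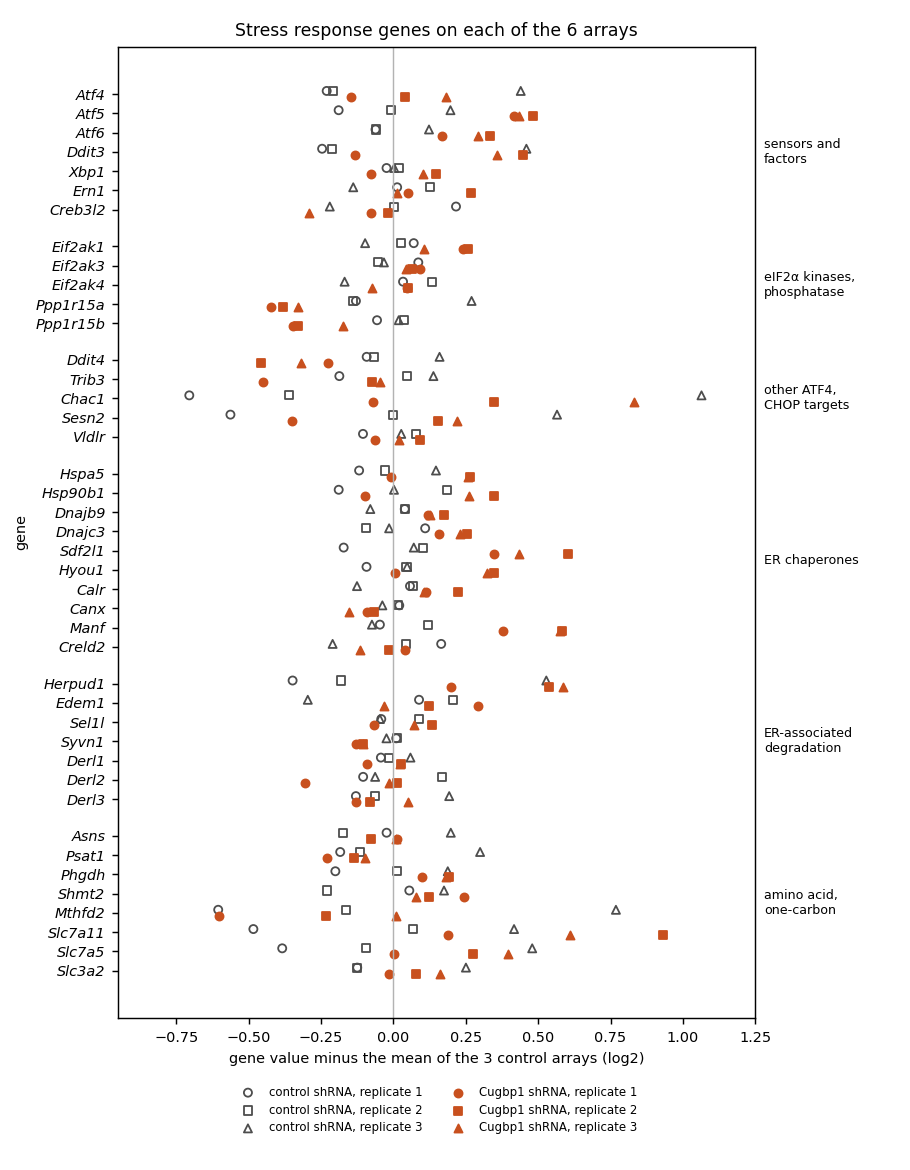
Log2 value of each of the 42 genes on each array minus the mean of the 3 control arrays, grouped by role (open symbols, control shRNA, and filled symbols, Cugbp1 shRNA, with circle, square and triangle for replicates 1, 2 and 3). For Manf and Sdf2l1 all filled symbols lie to the right of the open ones, whereas for Chac1, Mthfd2 and Sesn2 the control arrays alone span more than 1 log2 unit.

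**Figure D2:**
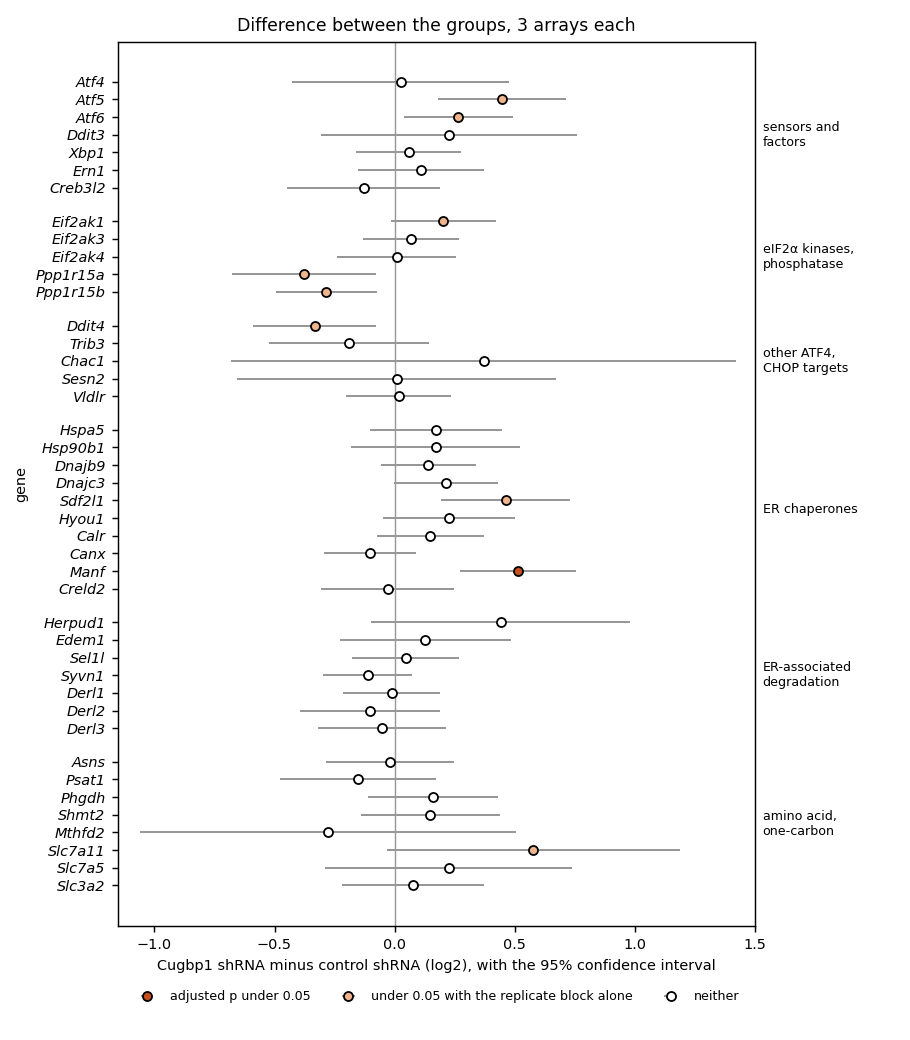
Log2 difference between the groups (Cugbp1 shRNA minus control shRNA, 3 arrays each) for each of the 42 genes with its 95% confidence interval from limma, grouped by role. Manf (0.51) is the filled point that passed the test, 8 genes in the paler fill passed with the replicate block alone, and the open points passed neither.

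Among the 7 sensors and transcription factors, 6 had a higher mean and 0 were called, with a median difference of 0.11. Atf5, a factor related to ATF4 that is translated under the same control, measured 7.55, 7.73 and 7.94 in controls and 8.16, 8.22 and 8.17 with the Cugbp1 shRNA. Each knockdown array lay above each control array, and the knockdown arrays lay within 0.07 of each other. The difference of 0.44 (SE 0.11, 95% confidence interval 0.18 to 0.71) had an adjusted p of 0.0808 in limma and 0.0155 with the replicate block. All 10 kept Atf5 probe sets had a higher mean.

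Atf6, the sensor that is cut in the Golgi to release a transcription factor, measured 8.83, 8.83 and 9.02 in controls and 9.06, 9.23 and 9.19 with the Cugbp1 shRNA. The groups were apart by a narrow margin. The difference was 0.26 (SE 0.10, adjusted p = 0.195, limma), and with the replicate block the adjusted p was 0.0385. Xbp1 measured 11.65, 11.69 and 11.67 in controls and 11.60, 11.82 and 11.77 in the knockdown, and its groups overlapped (difference 0.06, SE 0.09, adjusted p = 0.846, limma). These gene values do not separate the spliced from the unspliced Xbp1 mRNA. Ern1, which encodes IRE1, differed by 0.11 (SE 0.11), and Creb3l2, an ER-anchored factor related to ATF6, by -0.13 (SE 0.14).

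Atf4 measured 11.38, 11.40 and 12.05 in controls and 11.46, 11.65 and 11.79 with the Cugbp1 shRNA. Control replicate 3 was the highest of the 6 arrays, and the group means differed by 0.02 (SE 0.19, 95% confidence interval -0.43 to 0.48). Ddit3 measured 8.60, 8.64 and 9.31 in controls and 8.72, 9.30 and 9.21 in the knockdown, a difference of 0.23 (SE 0.23, adjusted p = 0.709, limma). For both factors control replicates 1 and 2 were close together and replicate 3 stood above them, with control spans of 0.67 for Atf4 and 0.71 for Ddit3.

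The 5 genes that set the phosphorylation of eIF2α comprised 3 kinases and both regulatory subunits of its phosphatase, and 0 were called in limma. Ppp1r15a, the stress-induced subunit also known as GADD34, measured 8.34, 8.32 and 8.74 in controls and 8.04, 8.08 and 8.14 with the Cugbp1 shRNA. Ppp1r15b, the constitutive subunit, measured 9.37, 9.47 and 9.45 in controls and 9.08, 9.10 and 9.25 in the knockdown. Both genes were lower on every knockdown array than on every control array. The differences were -0.38 (SE 0.13, adjusted p = 0.164, limma) for Ppp1r15a and -0.28 (SE 0.09, adjusted p = 0.142, limma) for Ppp1r15b. With the replicate block these adjusted p-values were 0.0262 and 0.0247. All 6 kept probe sets of Ppp1r15a and all 9 of Ppp1r15b had a lower mean.

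Of the kinases, Eif2ak1, the heme-regulated kinase HRI, measured 10.39, 10.35 and 10.22 in controls and 10.56, 10.58 and 10.43 in the knockdown. The groups were apart, and the difference of 0.20 (SE 0.09) had an adjusted p of 0.307 in limma and 0.0483 with the replicate block. Eif2ak3, which encodes PERK, differed by 0.07 (SE 0.09, adjusted p = 0.783, limma), and Eif2ak4, the amino acid sensor GCN2, by 0.01 (SE 0.11, adjusted p = 0.988, limma).

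The remaining 5 targets of ATF4 and CHOP had a median difference of 0.01, and 0 were called. Ddit4, an inhibitor of mTORC1 signalling, measured 11.28, 11.30 and 11.53 in controls and 11.15, 10.91 and 11.05 with the Cugbp1 shRNA. Every knockdown array was below every control array and all 5 kept probe sets had a lower mean. The difference was -0.33 (SE 0.11, adjusted p = 0.153, limma), with an adjusted p of 0.0336 with the replicate block. Trib3, a pseudokinase that binds ATF4, differed by -0.19 (SE 0.14, adjusted p = 0.571, limma), and Vldlr, a lipoprotein and reelin receptor, by 0.02 (SE 0.09).

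Chac1, an enzyme that degrades glutathione, measured 9.75, 10.09 and 11.52 in controls and 10.38, 10.80 and 11.29 in the knockdown. The control arrays spanned 1.77 log2 units, and the pooled within-group SD of 0.74 was at the 99.9th percentile of all genes tested. Its difference of 0.37 (SE 0.45, adjusted p = 0.775, limma) was smaller than that span. Sesn2, a sestrin that restrains mTORC1, measured 8.48, 9.04 and 9.61 in controls and 8.69, 9.20 and 9.26 in the knockdown, with a difference of 0.01 (SE 0.28).

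The 10 ER chaperones and folding factors had a median difference of 0.17, and 8 of them had a higher mean. Manf, a secreted ER protein with trophic activity on neurons, measured 9.69, 9.85 and 9.66 in controls and 10.11, 10.31 and 10.31 with the Cugbp1 shRNA. The groups were apart by more than either group's own span. Manf rose by 0.51 (SE 0.10, 95% confidence interval 0.27 to 0.75, adjusted p = 0.0418, limma; 0.00607 with the replicate block). The call was lost when each array was centred on its median (adjusted p = 0.0504, limma) and when genes with 1 kept probe set were also tested (adjusted p = 0.0724, limma). It also needed all 6 arrays, since leaving out any single array gave adjusted p-values from 0.0721 to 0.219, with differences from 0.43 to 0.59. Over all genes the same omissions left 0 to 98 genes called higher, the 98 without control replicate 1, and Celf1 itself was called only without that array (adjusted p = 0.029, limma) and ranged from 0.0538 to 0.142 without any other. With replicates 2 and 3 alone the difference was 0.54 (adjusted p = 0.0663, limma).

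Sdf2l1, a partner of the ER Hsp70 system, measured 8.79, 9.06 and 9.03 in controls and 9.31, 9.57 and 9.40 in the knockdown. The groups did not overlap, and all 7 kept probe sets had a higher mean. The difference of 0.46 (SE 0.11) had an adjusted p of 0.0736 in limma and 0.00612 with the replicate block. Hspa5, the central ER Hsp70 known as BiP, measured 11.55, 11.64 and 11.82 in controls and 11.66, 11.94 and 11.93 in the knockdown, with overlap and a difference of 0.17 (SE 0.12, adjusted p = 0.528, limma).

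None of the other chaperone genes was called in limma. Hsp90b1, the ER Hsp90 GRP94, differed by 0.17 (SE 0.15, adjusted p = 0.65, limma), and Hyou1, a nucleotide exchange factor for BiP, by 0.23 (SE 0.12, adjusted p = 0.373, limma). When any single array was left out, the Hyou1 difference lay between 0.083 and 0.219. Each omission reran the filter and the median polish on the arrays left, so such a change is not that of the omitted array alone. Dnajc3, a BiP co-chaperone that also inhibits eIF2α kinases, differed by 0.21 (SE 0.09, adjusted p = 0.272, limma) and Dnajb9, a co-chaperone that restrains IRE1, by 0.14 (SE 0.08), with groups apart for both. Of the lectin chaperones, Calr differed by 0.15 (SE 0.10, adjusted p = 0.489, limma) and Canx by -0.10 (SE 0.08, adjusted p = 0.595, limma), with the groups apart for both. The Canx difference was 0.0039 when its probe sets were averaged in place of median polish, and -0.10 to -0.040 with single arrays left out. Creld2, a folding factor, measured 9.54, 9.42 and 9.17 in controls and 9.42, 9.36 and 9.26 in the knockdown, a difference of -0.03 (SE 0.12).

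Promoter sequence was examined because ATF6 and XBP1 act through known elements upstream of these genes. RefSeq windows from 250 bases before to 50 after the start (300 bases, GRCm38.p6) were matched for 36 of the 42 genes, and each motif was searched on both strands. No window was matched for Atf6, Ppp1r15b, Hyou1, Manf, Derl1 and Slc7a5, so no motif was searched in them. The ER stress response element, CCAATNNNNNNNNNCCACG, was found for 6 of the 8 chaperone genes with a window, for 2 of 6 genes of ER-associated degradation, Syvn1 and Derl3 and for no gene with a window in the other roles. Over all 27025 genes with a window, 0.137% held it. The chaperone list was set by known regulation through ATF6 and XBP1, so its share follows from the list and is no result of these arrays. The stretches below are shown for the 6 chaperone genes with the element, read 5′ to 3′ along the gene's strand, with 20 bases on each side and the match in capitals. In the lines marked reverse the capitals are the reverse complement of the element.
Hspa5, chr2:34772005-34772063, plus strand: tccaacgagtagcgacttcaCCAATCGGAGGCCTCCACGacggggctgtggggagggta
Hsp90b1, chr10:86705618-86705676, minus strand: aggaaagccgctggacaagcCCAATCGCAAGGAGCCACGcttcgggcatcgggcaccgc
Hsp90b1, chr10:86705513-86705571, minus strand, reverse: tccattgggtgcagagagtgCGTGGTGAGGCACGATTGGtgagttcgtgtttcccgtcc
Dnajc3, chr14:118937807-118937865, plus strand: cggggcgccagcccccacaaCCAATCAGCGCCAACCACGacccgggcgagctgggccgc
Calr, chr8:84847055-84847113, minus strand, reverse: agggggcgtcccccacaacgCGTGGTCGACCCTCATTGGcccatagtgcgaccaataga
Canx, chr11:50325780-50325838, minus strand: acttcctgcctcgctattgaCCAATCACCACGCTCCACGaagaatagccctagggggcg
Creld2, chr15:88819500-88819558, plus strand, reverse: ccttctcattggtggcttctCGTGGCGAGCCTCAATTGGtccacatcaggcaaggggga
The matches began between 65 bases (Hspa5) and 212 bases (Hsp90b1) before the start. These 6 genes stood at differences from -0.10 (Canx) to 0.21 (Dnajc3), and Sdf2l1 (0.46), whose window was matched, held no such match. The XBP1-related element TGACGTGG was in 0 of the 36 windowed genes and in 0.714% of all genes.

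The 7 genes of ER-associated degradation, which extract misfolded proteins for the proteasome, had a median difference of -0.01, with 3 higher and 4 lower means and 0 called. Herpud1, an ER membrane protein of the degradation complex, measured 9.88, 10.05 and 10.76 in controls and 10.43, 10.76 and 10.82 with the Cugbp1 shRNA. Its controls spanned 0.88 log2 units, control replicate 3 reached the knockdown arrays, and all 10 kept probe sets had a higher mean. The difference of 0.44 (SE 0.23) had an adjusted p of 0.377 in limma. Syvn1, the ubiquitin ligase HRD1, measured 8.59, 8.60 and 8.56 in controls and 8.45, 8.48 and 8.48 in the knockdown, with groups apart. The Syvn1 difference was -0.11 (SE 0.08, adjusted p = 0.538, limma). It lay between -0.047 and -0.023 when any single array was left out and the filter and median polish were rerun. Sel1l, the partner of that ligase, differed by 0.05 (SE 0.10) and Edem1, a lectin that passes on misfolded glycoproteins, by 0.13 (SE 0.15). Derl1, Derl2 and Derl3, membrane proteins of the export channel, differed by -0.01, -0.10 and -0.05 with overlapping groups.

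The window of Herpud1 is shown because it was the 1 gene of the 36 with the second ER stress response element, ATTGGNCCACG, which 0.0444% of all genes held. Manf had no matched window, so whether it holds this element was not examined. The match in Herpud1 is given below. The match began 52 bases before the start.
Herpud1, chr8:94386357-94386407, plus strand: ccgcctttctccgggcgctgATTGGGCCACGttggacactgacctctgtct

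The 8 ATF4 targets of amino acid and one-carbon metabolism had a median difference of 0.11, with 5 higher and 3 lower means and 0 called. Slc7a11, the cystine and glutamate exchanger xCT, measured 7.53, 8.08 and 8.43 in controls and 8.20, 8.94 and 8.62 with the Cugbp1 shRNA. It was higher on the knockdown array of each of the 3 same-numbered pairs, by 0.67, 0.86 and 0.19, and all 19 kept probe sets had a higher mean, but the groups overlapped. The difference of 0.58 (SE 0.26, 95% confidence interval -0.03 to 1.19) had an adjusted p of 0.295 in limma and 0.025 with the replicate block. Slc7a5, a large neutral amino acid transporter, measured 11.62, 11.90 and 12.48 in controls and 12.00, 12.28 and 12.40 in the knockdown, a difference of 0.22 (SE 0.22, adjusted p = 0.697, limma). Slc3a2, the heavy chain that pairs with both transporters, differed by 0.08 (SE 0.13).

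Mthfd2, a mitochondrial folate enzyme, measured 9.32, 9.76 and 10.69 in controls and 9.32, 9.69 and 9.94 in the knockdown. Control replicate 3 lay above all other arrays, and the difference of -0.28 (SE 0.33, adjusted p = 0.774, limma) became 0.10 without that array. Asns, asparagine synthetase, measured 12.14, 11.99 and 12.36 in controls and 12.17, 12.08 and 12.17 in the knockdown, a difference of -0.02 (SE 0.11). Of the serine pathway, Phgdh differed by 0.16 (SE 0.12), Psat1 by -0.15 (SE 0.14) and Shmt2, which passes serine carbon to folate, by 0.15 (SE 0.12), and 0 of these 3 were called.

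The ATF4 response element searched, TGATGNAAN, was found for 6 of the 36 genes with a window (Trib3, Chac1, Vldlr, Herpud1, Asns and Slc7a11), beside 4.5% of all genes. Here too the genes were set by their known roles, so the share is no result of these arrays. The stretches of the transporter with the largest difference of the 42 genes, of the gene with the widest control span and of asparagine synthetase, a long-studied ATF4 target, are shown with the match in capitals.
Slc7a11, chr3:50443651-50443699, minus strand: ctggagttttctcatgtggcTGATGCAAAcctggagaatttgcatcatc
Chac1, chr2:119351028-119351076, plus strand, reverse: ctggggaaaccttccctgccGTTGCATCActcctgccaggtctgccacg
Asns, chr6:7693204-7693252, minus strand: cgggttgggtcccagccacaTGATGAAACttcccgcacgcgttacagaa
The Slc7a11 window held a further match in reverse, 48 bases before the start. The 3 genes stood at differences of 0.58, 0.37 and -0.02.

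Set side by side, chaperone and amino acid genes differed in how alike the replicate pairs were. The median difference of the 10 chaperone genes was 0.09, 0.23 and 0.24 in pairs 1, 2 and 3, and 8 of the 10 genes were higher in all 3 pairs. The median of the 8 amino acid genes was 0.15, 0.19 and -0.09, and 1 of the 8, Slc7a11, was higher in all 3 pairs. Over all genes tested, 25.9% were higher in all 3 pairs and 31.6% were lower in all 3 pairs. For the 42 genes these counts were 15 (35.7%) and 9 (21.4%). In pair 3, 0 of the 5 other ATF4 and CHOP targets were higher. The difference between the chaperone and amino acid medians was not tested. All 9 proliferation markers were also higher in all 3 pairs, and their part in the chaperone pattern was not tested.

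**Figure D3:**
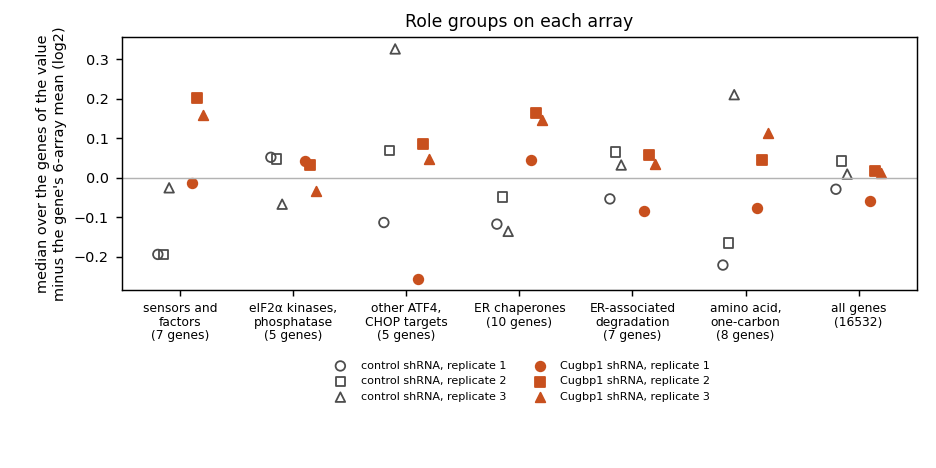
Median over the genes of each role of the log2 value minus that gene's mean over the 6 arrays, for each array (open symbols, control shRNA, and filled symbols, Cugbp1 shRNA, by replicate), with all 16532 genes at the right. The 3 filled chaperone symbols (0.04 to 0.16) lie above the 3 open ones (-0.14 to -0.05). Those of the sensors and transcription factors (-0.01 to 0.20) also lie above their open ones (-0.19 to -0.03), by a narrow margin. For the amino acid genes control replicate 3 (0.21) is the highest of all 6 arrays.

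The ATF4 genes differed among the control arrays themselves. Control replicate 3 was the highest of the 3 controls for all 8 amino acid genes and for 4 of the 5 other targets, whereas it was the highest for 2 of the 10 chaperone genes and for 33.2% of all genes. Control replicate 1 was the lowest of the controls for all 5 other targets, and for 47% of all genes. The median gap between control replicates 3 and 1 was 0.44 for the amino acid genes and 0.02 for all genes. The control span exceeded the difference between the groups for all 8 amino acid genes, for 4 of the 10 chaperone genes and for 76.4% of all genes. Without control replicate 3 the median difference of the amino acid genes was 0.21, and without control replicate 2 it was 0.03. The chaperone median lay between 0.10 and 0.23 whichever array was left out. Of 12 aminoacyl-tRNA synthetases, further targets of ATF4 that charge tRNAs, 10 were also highest in control replicate 3. The pattern was not confined to ATF4 targets. Control replicate 3 was the highest control for 7 of 10 microglial but 0 of 11 pan-neuronal markers. Control replicate 1 was the lowest for 8 of 10 microglial, 7 of 9 endothelial and mural and 2 of 11 pan-neuronal markers.

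Individual exon probe sets were then compared. Of the 715 kept probe sets of the 42 genes, 22 were higher and 9 lower at an unadjusted p under 0.05, together 4.34%, against 5.92% of all kept probe sets. None passed after adjustment over all kept probe sets (limma, smallest adjusted p = 0.417). Relative use of a probe set, its difference minus that of the rest of its gene, was called for 1 of the 715 with diffSplice, 0.14%, against 0.0791% of all probe sets tested.

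That call was a Manf probe set, 5347372, with deposited values of 5.37, 5.71 and 5.98 in controls and 7.12, 7.30 and 7.07 with the Cugbp1 shRNA. Its use was higher by 0.93 (SE 0.20, adjusted p = 0.046, diffSplice), and 2 of its 3 control values lay below the filter level of 5.73. The mean of its control values was also below that level. It therefore passed the filter, set on the mean of all 6 arrays, only through the knockdown values, where it is high. The call cannot be taken as separate support for a change in Manf. The 7 kept Manf probe sets, with this one among them, all had a higher mean, and 4 had the groups apart. Probe sets 4569531 and 4657059 differed by 1.13 and 1.02, and probe set 4557623 by 0.14. The call by use was lost both without the filter on low values and with the filter at the 75th percentile. The places of these probe sets in the exons of Manf were not examined here.

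**Figure D4:**
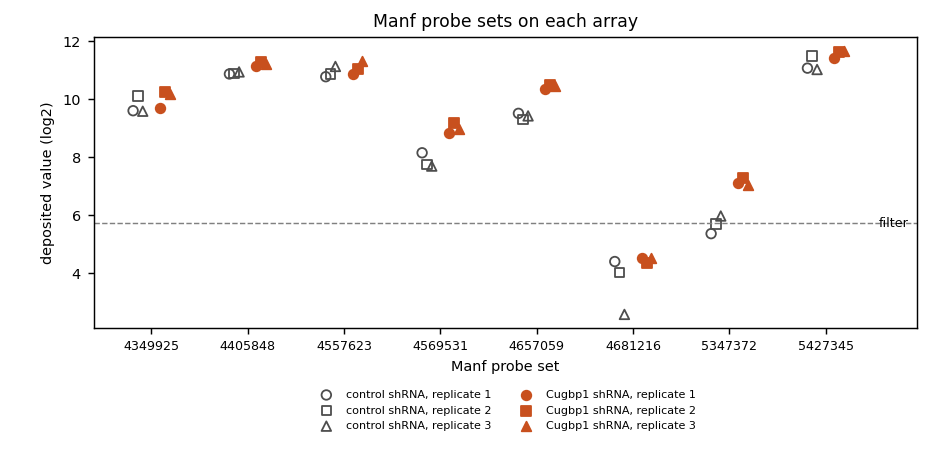
Deposited log2 values of the 8 Manf probe sets on each array (open symbols, control shRNA, and filled symbols, Cugbp1 shRNA, by replicate), with the filter level of 5.73 dashed. The groups are far apart at probe sets 4569531, 4657059 and 5347372 and overlap at 4557623, and 4681216 did not pass the filter.

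With the replicate block, diffSplice called 16 of the 715 probe sets in 10 genes, 9 gained and 7 lost. That is 2.24%, against 2.3% of all probe sets tested. Canx held 5 of these 16 calls, and its probe set 4535774 measured 12.12, 12.18 and 12.14 in controls and 10.78, 11.48 and 11.55 in the knockdown. Its use differed by -0.91, with an adjusted p of 0.691 in diffSplice and 3.7e-05 with the replicate block. Probe set 5298142 of Hsp90b1 had a use of -0.70 (adjusted p = 0.562 in diffSplice and 9.4e-05 with the block).

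Beyond the 42 genes, 94 related genes were listed and 92 were tested, of which 2 were called higher and 1 lower in limma, 13 and 12 with the replicate block. In limma these are 2.17% higher and 1.09% lower of the 92, beside 1.09% and 2.85% of all genes. With the block they are 14.1% higher and 13% lower, beside 9.34% and 13.9% of all genes. Counts this small are not read as a result about the related genes. Without control replicate 1 there were 1 higher and 2 lower calls, and leaving out any other single array left 0 in both directions. Eif2ak2, the eIF2α kinase PKR that is activated by double-stranded RNA, measured 6.85 ± 0.18 (SD, n = 3) in controls and 7.56 ± 0.17 (SD, n = 3) in the knockdown, and rose by 0.72 (SE 0.13, adjusted p = 0.0342, limma). Ube2g2, a ubiquitin-conjugating enzyme of ER-associated degradation, rose by 0.75 (SE 0.10, adjusted p = 0.0175, limma). Tmbim6, an ER membrane protein that restrains cell death, fell by 0.65 (SE 0.11, adjusted p = 0.0281, limma). Nfe2l2, picked out after its values were seen, is the oxidative stress factor NRF2. It differed by 0.57 (SE 0.13, adjusted p = 0.0573 in limma and 0.00752 with the replicate block). Of the 23 eIF2, eIF2B and other regulators that hold it, the block called 4 higher and 6 lower, where it called 9.34% and 13.9% of all genes. Besides Nfe2l2 and Eif2ak2 these were Eif2b1 and Atf3 higher, and Eif2b4, Cebpg, Mbtps2, Wfs1, Stc2 and Creb3l1 lower. Atf3 and Creb3l1 were also picked out after their values were seen. Atf3 differed by 0.68 (SE 0.21, adjusted p = 0.132 in limma and 0.0174 with the block), with overlapping groups. Creb3l1 differed by -0.63 (SE 0.18, adjusted p = 0.108 in limma and 0.0156 with the block).

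The other related groups held 0 calls in limma. Of 26 genes of ER folding, translocation and glycosylation, 21 had a higher mean, against 46.5% of all genes, with a median difference of 0.11. With the replicate block 6 of them were called higher and 1 lower, where 9.34% and 13.9% of all genes were called. The smallest p-values there were those of Ssr2, a translocon-associated subunit (0.38, SE 0.12, adjusted p = 0.149 in limma and 0.0371 with the block), and Ssr3, of the same complex (-0.38, SE 0.13, adjusted p = 0.164 in limma and 0.0193 with the block). Of 12 aminoacyl-tRNA synthetases 8 had a higher mean, with Wars at -0.31 (SE 0.09, adjusted p = 0.116 in limma and 0.0132 with the block) and Iars at 0.38 (SE 0.13, adjusted p = 0.164 in limma and 0.0169 with the block). Of 16 further genes of amino acid synthesis and transport 7 had a higher mean, and the smallest p-values were those of 2 enzymes of mitochondrial folate metabolism. Aldh1l2 differed by -0.38 (SE 0.14, adjusted p = 0.189 in limma and 0.0726 with the block) and Mthfd1l by -0.50 (SE 0.19, adjusted p = 0.215 in limma and 0.00744 with the block).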

How the data were processed

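Total RNA (100 ng) of 6 samples was measured on mouse exon arrays. The authors deposited log2 values per exon probe set, made by RMA with Affymetrix's Expression Console software, per the labels, with build mm9 named in the submitters' processing notes and no version stated. RMA had already normalized the arrays. Of the 1195555 probe sets, 317245 had 1 gene symbol, 6323 several (not used) and 871987 were not listed; symbols came from GEO's platform annotation, and 4229 of 22287 were updated through RefSeq synonyms.

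Probe sets with a mean at or above the median of all (5.73) were kept, and genes with at least 3 were summarised by Tukey median polish (16532 genes). Groups were compared with limma 3.58.1 in R 4.3.3 (lmFit, eBayes, two-sided, Benjamini-Hochberg over all genes) and with diffSplice for probe set use. The scripts were tested on simulated data. Pairing by replicate number was checked from same-number correlations of deviations (0.76, 0.50 and 0.71), with numbers from the sample names and replicate 1 by exclusion. An exact two-sided permutation of 3 against 3 arrays cannot go below p = 0.1. Promoters are RefSeq's, GRCm38.p6. All 42 genes could be named, beside called genes and the 2 smallest p-values of each related list. The called markers could also be named, as could called probe sets or the 5 with the smallest p in each fit. Nfe2l2, Atf3 and Creb3l1 were named outside this rule, as were the other blocked calls of the list that holds them. Further blocked calls are given as counts. The genes and lists were chosen with earlier results of these data known. Alternatives changed the block, arrays, normalization, filter, variance model, summary, probe set minimum and threshold.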

Additional observations from a re-analysis of the deposited data

How the results depend on the processing

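Of the 42 genes, 30 kept their direction under all 17 other settings. With the replicate block, 6 of the 42 were called higher and 3 lower, of the related genes 13 and 12, of all genes 1544 and 2290, and 16 probe sets by use; with the label form (replicate 1 against 2 and 3) as a block these were 4 and 1, 6 and 9, 976 and 1563, and 5. An adjusted p under 0.10 gave 3 higher of the 42, 4 higher related, and 453 and 898 of all genes. Trend and robust variances gave 2 higher of the 42, 4 and 2 related, and 366 and 725 of all genes. The 75th percentile filter gave 3 higher of the 42, 365 higher of all genes and 0 calls by use, and no filter gave 1 higher related gene and 0 by use. A minimum of 1 probe set gave 0 higher of the 42 (Manf adjusted p = 0.0724, limma), 1 and 0 related, and 67 and 194 of all genes. Median centring (Manf adjusted p = 0.0504, limma) and replicates 2 and 3 alone also gave 0 higher of the 42, and the latter 2 lower related genes.

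Each fit with a single array left out reran the filter and the median polish on the arrays left. With single arrays left out, 0 of the 42 were called higher, and the counts were 0 to 98 higher and 0 to 176 lower of all genes, 0 to 1 higher and 0 to 2 lower related genes and 0 to 2 by use. Celf1 lay between -1.43 and -1.29 and was called without control replicate 1 alone.

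Directions turned for 12 genes, Mthfd2 (-0.28) among them. With replicates 2 and 3 alone Eif2ak4 was -0.036, Sesn2 -0.072, Creld2 0.039 and Derl1 0.085; at the 75th percentile Eif2ak4 was -0.0011 and Derl1 0.014; without the filter Sesn2 was -0.021; with probe set means Eif2ak4 was -0.019, Vldlr -0.015, Canx 0.0039, Derl1 0.12 and Asns 0.041. The cause was not tested. Single arrays left out gave Atf4 -0.057 to 0.24, Eif2ak4 -0.065 to 0.075, Sesn2 -0.26 to 0.31, Vldlr -0.022 to 0.076, Creld2 -0.12 to 0.060, Edem1 -0.0041 to 0.23, Derl1 -0.041 to 0.033, Derl2 -0.16 to 0.023, Derl3 -0.12 to 0.046, Asns -0.11 to 0.055 and Mthfd2 -0.59 to 0.10. Signal near the filter level limits the Manf probe set with the called use.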
